A study of Mus musculus with 16 samples.

Results

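The fatty acid oxidation and ketogenesis genes described here are 30 mouse genes named by their symbols, and all 30 had a row among the 47729 gene rows of the count tables. They were measured by RNA sequencing in endothelial cells (ECs), hepatic stellate cells (HSCs), Kupffer cells (KCs) and hepatocytes isolated from livers of adult, unchallenged mice. The knock-out (KO) mice carried floxed Zeb2 alleles and a tamoxifen-inducible Cre driven by the endothelial Cdh5 promoter, and received 2 mg tamoxifen daily for 5 consecutive days. The wild-type (WT) mice were littermates without Cre that received the same tamoxifen, so both labels share the drug. Each of the 4 cell types had 2 WT and 2 KO libraries, 16 in all, with 12872706 to 15690506 reads on genes per library. In HSCs, KCs and hepatocytes the KO label names the mouse and not a deletion in the cells that were sequenced.

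Mitochondrial beta-oxidation shortens fatty acids to acetyl-CoA: the acid is activated to an acyl-CoA, carried across the inner membrane as acylcarnitine and passed through repeated rounds of dehydrogenation, hydration, dehydrogenation and thiolysis. Peroxisomes run a parallel pathway for very long-chain and dicarboxylic acids. In liver the acetyl-CoA can be turned into ketone bodies, and many genes of these pathways are targets of the nuclear receptor PPAR-alpha, which is abundant in hepatocytes.

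In ECs, Zeb2 itself stood at 106 and 106 CPM (reads of the gene over all reads on genes, scaled to parts per 1000000) in the WT libraries and at 199 and 130.1 CPM in the KO-label libraries, so both KO-label libraries read above both WT ones. The count covers the whole gene while the conditional allele removes a single exon, so it does not check the deletion, and libraries are called by their labels throughout. The marker lists matched the labelled cell types, but the non-parenchymal libraries also held hepatocyte transcripts. The summed CPM of 10 hepatocyte markers was 97842 to 113465 in hepatocytes. It was 11872 to 24505 in WT ECs against 1984 to 2824 in KO-label ECs, 3176 to 7729 against 576 to 1535 in HSCs, and 5806 to 8645 against 9629 to 11608 in KCs. None of the 10 markers was at 0 in any EC, KC or hepatocyte library, and at most 1 was in an HSC library. For 850 hepatocyte-enriched genes (at least 10 CPM in WT hepatocytes and at least 8 times the WT KC mean, members left out), the median level relative to WT hepatocytes was 11.1% and 22.9% in the WT EC libraries and 3.34% and 2.29% in the KO-label ones. In HSCs it was 3.92% and 7.94% against 0.914% and 1.39%, and in KCs 4.74% and 8.55% against 9.72% and 11.3%.

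Most of the 30 genes were more abundant in hepatocytes than in the other cell types. Scaled by the TMM factors of edgeR, 28 of 30 members were higher in hepatocytes than in ECs (adjusted p under 0.05, 4 libraries against 4), against 25.5% of all genes tested. All 30 were higher than in HSCs, against 24.4% of all genes, and all 30 were higher than in KCs, against 26.3%. The median difference over the members was 3.53, 3.25 and 3.37 on the log2 scale for ECs, HSCs and KCs, while the median over all genes was -0.54, -0.60 and -0.24. The TMM factors were 0.497 to 0.588 in hepatocytes and 1.01 to 1.47 in the other libraries. Scaled by library totals alone, a setting chosen after seeing the data, the all-gene medians were -1.85, -1.67 and -1.24, the members' medians were 2.14, 2.12 and 2.31, and 26, 27 and 27 members were higher in hepatocytes. In CPM, all 4 hepatocyte libraries lay above all 4 libraries of the other cell type for 27 members in each of the 3 comparisons. The share of all genes is not given for the counts by library totals and in CPM, so those counts describe the members only. Libraries of different cell types may come from the same liver, which the labels do not tell, and the p-values treat them as independent. In these bulk samples, fewer cells of a type and less RNA per cell cannot be told apart.

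**Figure D1:**
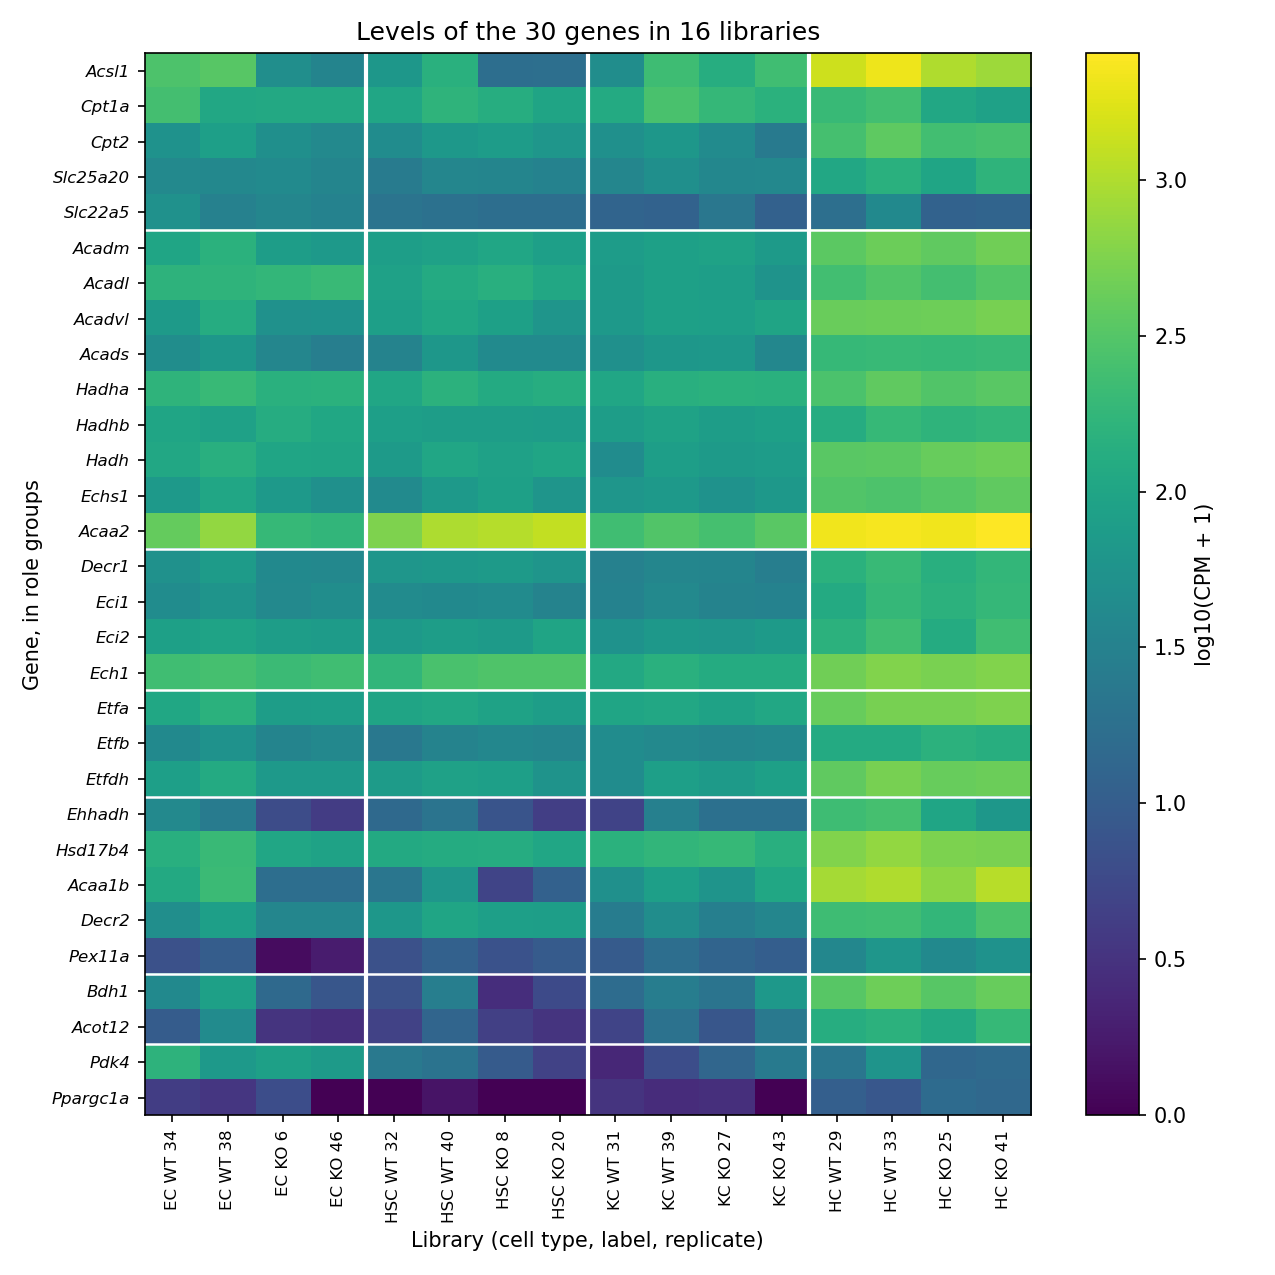
Levels of the 30 genes, as log10(CPM + 1), with genes in rows by role (from top: activation and carnitine shuttle, mitochondrial spiral, auxiliary enzymes, electron transfer, peroxisomal, ketone body and acetyl-CoA, regulators) and the 16 libraries in columns by cell type, label and replicate. Most rows are brightest in the 4 hepatocyte columns, Acaa2 is bright in every column, and Pdk4 is brighter in the EC columns than in the hepatocyte ones.

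Acaa2, a mitochondrial thiolase that releases acetyl-CoA in the last step of the spiral, had the highest level per length of all members in every group. In WT hepatocytes it reached 1461 CPM per kilobase of exon, followed by the peroxisomal thiolase Acaa1b at 484 and the electron transfer flavoprotein subunit Etfa at 252. The lowest members there were the transcriptional coactivator Ppargc1a at 1.29 CPM per kilobase and the plasma membrane carnitine transporter Slc22a5 at 9.19. Outside hepatocytes, Acaa2 measured 556 and 970 CPM in WT and 1073 and 1233 CPM in KO-label HSCs, 404 and 713 CPM in WT and 190.5 and 172 CPM in KO-label ECs, and 227 to 344 CPM in KCs. HSCs and ECs overlapped under the WT label, and all HSC libraries lay above all KC libraries.

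Pdk4, Slc22a5 and Cpt1a had the highest EC levels relative to hepatocytes. Pdk4 encodes the kinase that blocks pyruvate dehydrogenase and so spares glucose carbon. It measured 157 and 66.2 CPM in WT ECs and 85.9 and 69.7 CPM in KO-label ECs, against 20.7 and 57.6 CPM in WT and 12.6 and 14.0 CPM in KO-label hepatocytes. All EC libraries lay above all hepatocyte libraries in CPM, and the WT EC mean was 285% of the WT hepatocyte mean. On the TMM scale the Pdk4 difference of hepatocytes from ECs was -0.64 ± 0.44 (log2, SE, adjusted p = 0.230), and by library totals it was -2.03 (adjusted p = 0.00234).

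Slc22a5 stood at 51.1 and 30.4 CPM in WT ECs, 36.1 and 31.8 CPM in KO-label ECs, 16.5 and 40.0 CPM in WT hepatocytes and 10.8 and 11.4 CPM in KO-label hepatocytes, and the 2 cell types overlapped. Its log2 difference of hepatocytes from ECs was 0.31 ± 0.32 (SE, adjusted p = 0.426) with TMM and -1.07 (adjusted p = 0.00840) by library totals, so its direction turned with the scale. As much as 26.3% of the 50-base words of Slc22a5 transcripts also occur in transcripts of other genes, mostly Slc22a21, so its count is uncertain. Cpt1a encodes the outer membrane carnitine palmitoyltransferase, the rate-limiting step of the shuttle. It was at 240.2 and 111 CPM in WT ECs, 112 and 112 CPM in KO-label ECs, 121 and 265 CPM in WT KCs, 183 and 147 CPM in KO-label KCs, 195 and 234 CPM in WT hepatocytes and 111 and 86.8 CPM in KO-label hepatocytes. The 3 cell types overlapped, and the TMM difference of hepatocytes from KCs of 0.79 (adjusted p = 0.0345) became -0.29 (adjusted p = 0.423) by library totals.

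Acsl1, Acaa2, Ehhadh, Acaa1b, Bdh1, Acot12 and Pdk4, 7 of the 30, met the hepatocyte-enriched rule, which uses only the WT hepatocyte and WT KC levels. Of these, Pdk4 stood at 53.8% of the WT hepatocyte mean in WT HSCs beside the EC level given above, and Acaa2 at 34.4% in WT and 52.0% in KO-label HSCs. In WT KCs, Bdh1, the dehydrogenase that interconverts acetoacetate and beta-hydroxybutyrate, was at 5.36% of the WT hepatocyte mean, Acaa1b at 7.05% and Ehhadh, the peroxisomal bifunctional enzyme, at 7.13%. In WT ECs the lowest members were Ehhadh at 13.7%, Pex11a at 15.7% and Bdh1 at 16.1%. Ppargc1a was near the counting floor in HSCs, with 0 and 0.512 CPM in the WT libraries and 0 CPM in both KO-label libraries, where 3 counts equal 0.191 to 0.233 CPM over the 16 libraries.

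As a whole the members sat between the hepatocyte-enriched genes and a list of 20 tricarboxylic acid cycle and respiratory chain genes. Their median was 24.4% and 33.4% of the WT hepatocyte level in WT ECs, 21.2% and 17.0% in KO-label ECs, 20.2% to 26.9% in HSCs and 19.6% to 23.1% in KCs. The 20 respiratory genes had medians of 41.0% to 66.6% in the same libraries. The hepatocyte-enriched rule requires a low WT KC level, so the place of the members above that list in KCs was set in part beforehand.

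**Figure D2:**
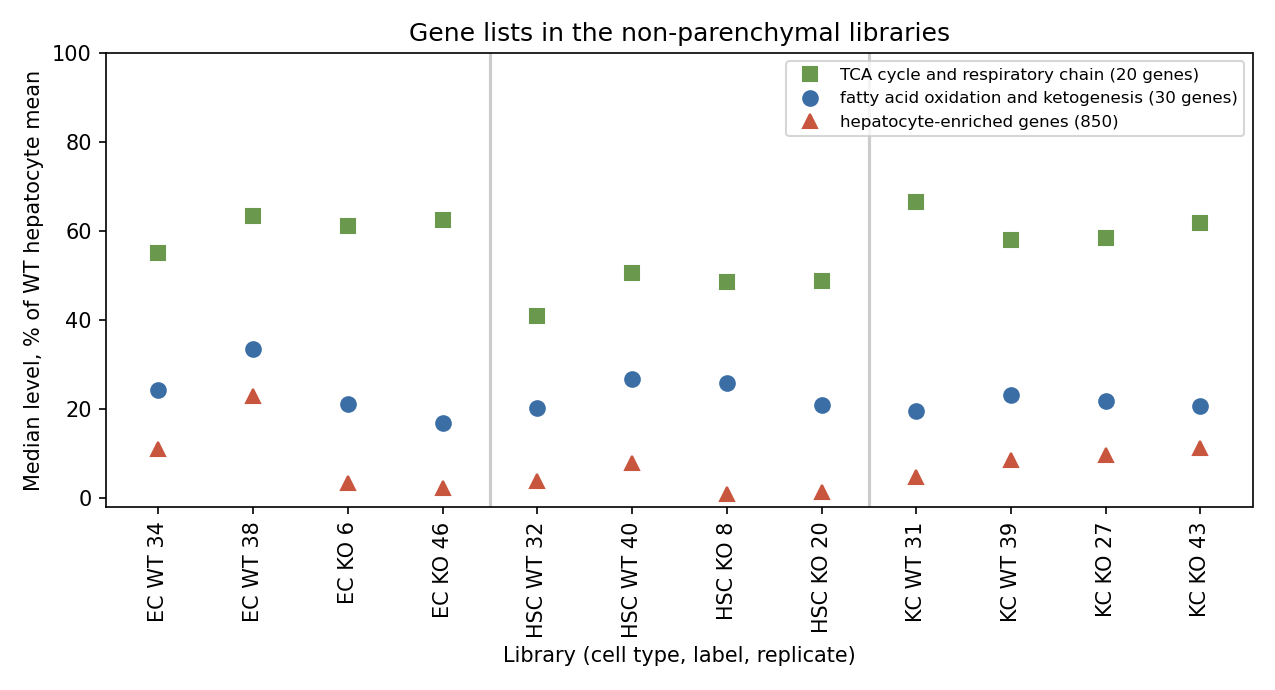
Median level of each gene list as a percentage of the WT hepatocyte mean (vertical axis) in the 12 non-parenchymal libraries (horizontal axis), with a symbol per list and library. The hepatocyte-enriched genes are at 11.1% and 22.9% in WT ECs and at 3.34% and 2.29% in KO-label ECs, while the 30 members run from 17.0% to 33.4% over all 12 libraries.

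The KO label was then compared with the WT label within each cell type, which asks how these genes differed in ECs, and in the cells around them, when Zeb2 was targeted in ECs. With 2 libraries a side an exact permutation test of a single gene cannot give a two-sided p below 0.333, so the quasi-likelihood test of edgeR was fitted over all genes with Benjamini-Hochberg adjustment. Nothing in the labels says which libraries came from separate mice, so the p-values measure the spread between these libraries.

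In ECs, 28 of the 30 members had lower estimates under the KO label. Of the 30, 4 passed the adjusted threshold, all lower, against 2.08% of the 14631 genes tested, and DESeq2 called 7 (6.39% of all genes with an adjusted p in that tool). At an unadjusted p under 0.05, 15 members were lower (10.1% of all genes) and 0 were higher (4.86% of all genes). Both KO-label libraries lay below both WT libraries for 20 members (24.1% of all genes) and above them for 2 (24.2% of all genes). The median log2 fold change was -0.64 over the members and -0.01 over all genes.

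The members that passed the adjusted threshold in edgeR in ECs were an activating enzyme, a pair of peroxisomal enzymes and a ketone body enzyme. Acsl1, a long-chain acyl-CoA synthetase that begins the pathway, measured 286 and 331 CPM in WT ECs and 47.8 and 33.4 CPM in KO-label ECs. Its log2 fold change was -2.93 ± 0.25 (SE, adjusted p = 0.0190). Ehhadh went from 39.6 and 25.2 CPM to 5.22 and 2.99 CPM, a log2 fold change of -2.996 ± 0.42 (SE, adjusted p = 0.0303). For these genes the lowest WT library was several times the highest KO-label library. Acaa1b read 115 and 209 CPM under the WT label and 16.2 and 16.1 CPM under the KO label (log2 fold change -3.32 ± 0.33, adjusted p = 0.0228). As 39.6% of its 50-base words occur in other genes, chiefly its paralog Acaa1a, that count is uncertain. Bdh1 read 39.9 and 86.2 CPM against 13.5 and 7.16 CPM (log2 fold change -2.62 ± 0.46, adjusted p = 0.0494). In Acsl1 and Bdh1, 9.23% and 11.1% of the 50-base words occur in other genes, mostly the overlapping antisense genes Gm45244 and Gm15743. As the strand setting of the counts is not given, those counts are uncertain too.

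The 4 members called in ECs are all hepatocyte-enriched members. Beside them, the 10 hepatocyte markers had EC log2 fold changes of -3.14 to -2.74, and 826 of the hepatocyte-enriched genes, those that could be tested, had a median of -2.46. The part of hepatocyte RNA in the EC differences was not tested. The number of members called changed with the library left out, and a group left with 1 library has no spread of its own. All 4 estimates stayed negative. They were weakest without EC KO replicate 46 for Acsl1, without EC WT replicate 34 for Ehhadh, and without EC WT replicate 38 for Acaa1b and Bdh1. Refitted with 1 library fewer, the estimates ran from -3.14 to -2.73 for Acsl1, -3.37 to -2.59 for Ehhadh, -3.65 to -2.86 for Acaa1b and -3.05 to -1.99 for Bdh1.

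The 2 largest estimates in ECs came from genes of low level. Pex11a, a peroxisomal membrane protein that acts in peroxisome division, measured 6.00 and 9.17 CPM under the WT label and 0.279 and 0.834 CPM under the KO label (log2 fold change -3.72 ± 0.81, adjusted p = 0.0909). Acot12, an acetyl-CoA hydrolase, measured 8.86 and 42.8 CPM against 2.23 and 1.88 CPM (log2 fold change -3.64 ± 0.77, adjusted p = 0.0816). Neither passed the adjusted threshold in edgeR, DESeq2 called both (adjusted p of 0.000503 and 3.93e-06), and in both the labels did not overlap. The Acot12 estimate was -4.34 without EC WT replicate 34 (adjusted p = 0.00243 in edgeR) and -2.13 without EC WT replicate 38, and that of Pex11a ran from -4.76 without EC KO replicate 46 to -3.09 without EC KO replicate 6. Pex11a is not a hepatocyte-enriched member, its WT KC level being 25.3% of the WT hepatocyte level. In ECs it was at 12.4% and 19.0% of that hepatocyte level under the WT label and at 0.576% and 1.72% under the KO label. Medians of the hepatocyte-enriched genes were 11.1% and 22.9% against 3.34% and 2.29% in the same libraries. The part of hepatocyte RNA in the Pex11a difference was not tested. The 7 hepatocyte-enriched members had a median EC log2 fold change of -2.93 and the other 23 had -0.52.

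In the mitochondrial spiral the EC differences were smaller. Acaa2, whose values are given above, had a log2 fold change of -1.62 ± 0.31 (adjusted p = 0.0594). The acyl-CoA dehydrogenases for very long chains (Acadvl), medium chains (Acadm) and short chains (Acads) had log2 fold changes of -0.91, -0.79 and -0.77, with adjusted p of 0.246, 0.210 and 0.252. The count of Acadvl is uncertain, since 26.9% of its 50-base words occur in other genes, mostly Dvl2. Of the 9 members of the spiral, 4 reached an unadjusted p under 0.05, all lower, and 0 passed the adjusted threshold in edgeR.

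The 2 members with estimates above 0 in ECs were also in the spiral. Acadl, the long-chain acyl-CoA dehydrogenase, measured 160 and 161 CPM under the WT label and 180 and 203 CPM under the KO label (log2 fold change 0.26 ± 0.21, adjusted p = 0.639). Hadhb, the beta subunit of the trifunctional protein, measured 101 and 87.2 CPM against 126 and 105 CPM (log2 fold change 0.29 ± 0.21, adjusted p = 0.592). Its partner Hadha had a log2 fold change of -0.29 ± 0.21, with an adjusted p of 0.578. The gene models of Hadha and Hadhb lie on opposite strands of chromosome 5 with 85 bases between them (GENCODE M21, GRCm38). As 19.7% of the 50-base words of Hadhb occur in other genes, its count is uncertain.

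The remaining genes of the pathway had smaller EC differences than the genes called. The auxiliary enzymes, which rearrange double bonds of unsaturated acids (Decr1, Eci1, Eci2, Ech1), had EC log2 fold changes of -0.66 to -0.12. The electron transfer proteins, which pass electrons from the dehydrogenases to ubiquinone (Etfa, Etfb, Etfdh), had -0.69 to -0.40. As 44.8% of the 50-base words of Etfb occur in other genes, mostly Gm45233, its count is uncertain. Of the carnitine shuttle, the inner membrane transferase Cpt2 had -0.63, Cpt1a -0.66, Slc22a5 -0.27 and the carnitine-acylcarnitine carrier Slc25a20 -0.03. Cpt1a was highest in EC WT replicate 34, at 240.2 CPM against 111 to 112 CPM in the other EC libraries, and its estimate was 0.06 without that library and -1.13 without EC WT replicate 38. None of the auxiliary, electron transfer and shuttle genes passed the adjusted threshold in edgeR. In the peroxisomal group, Hsd17b4, a second bifunctional enzyme, and the reductase Decr2 had -0.81 and -0.87, both at an unadjusted p under 0.05.

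**Figure D3:**
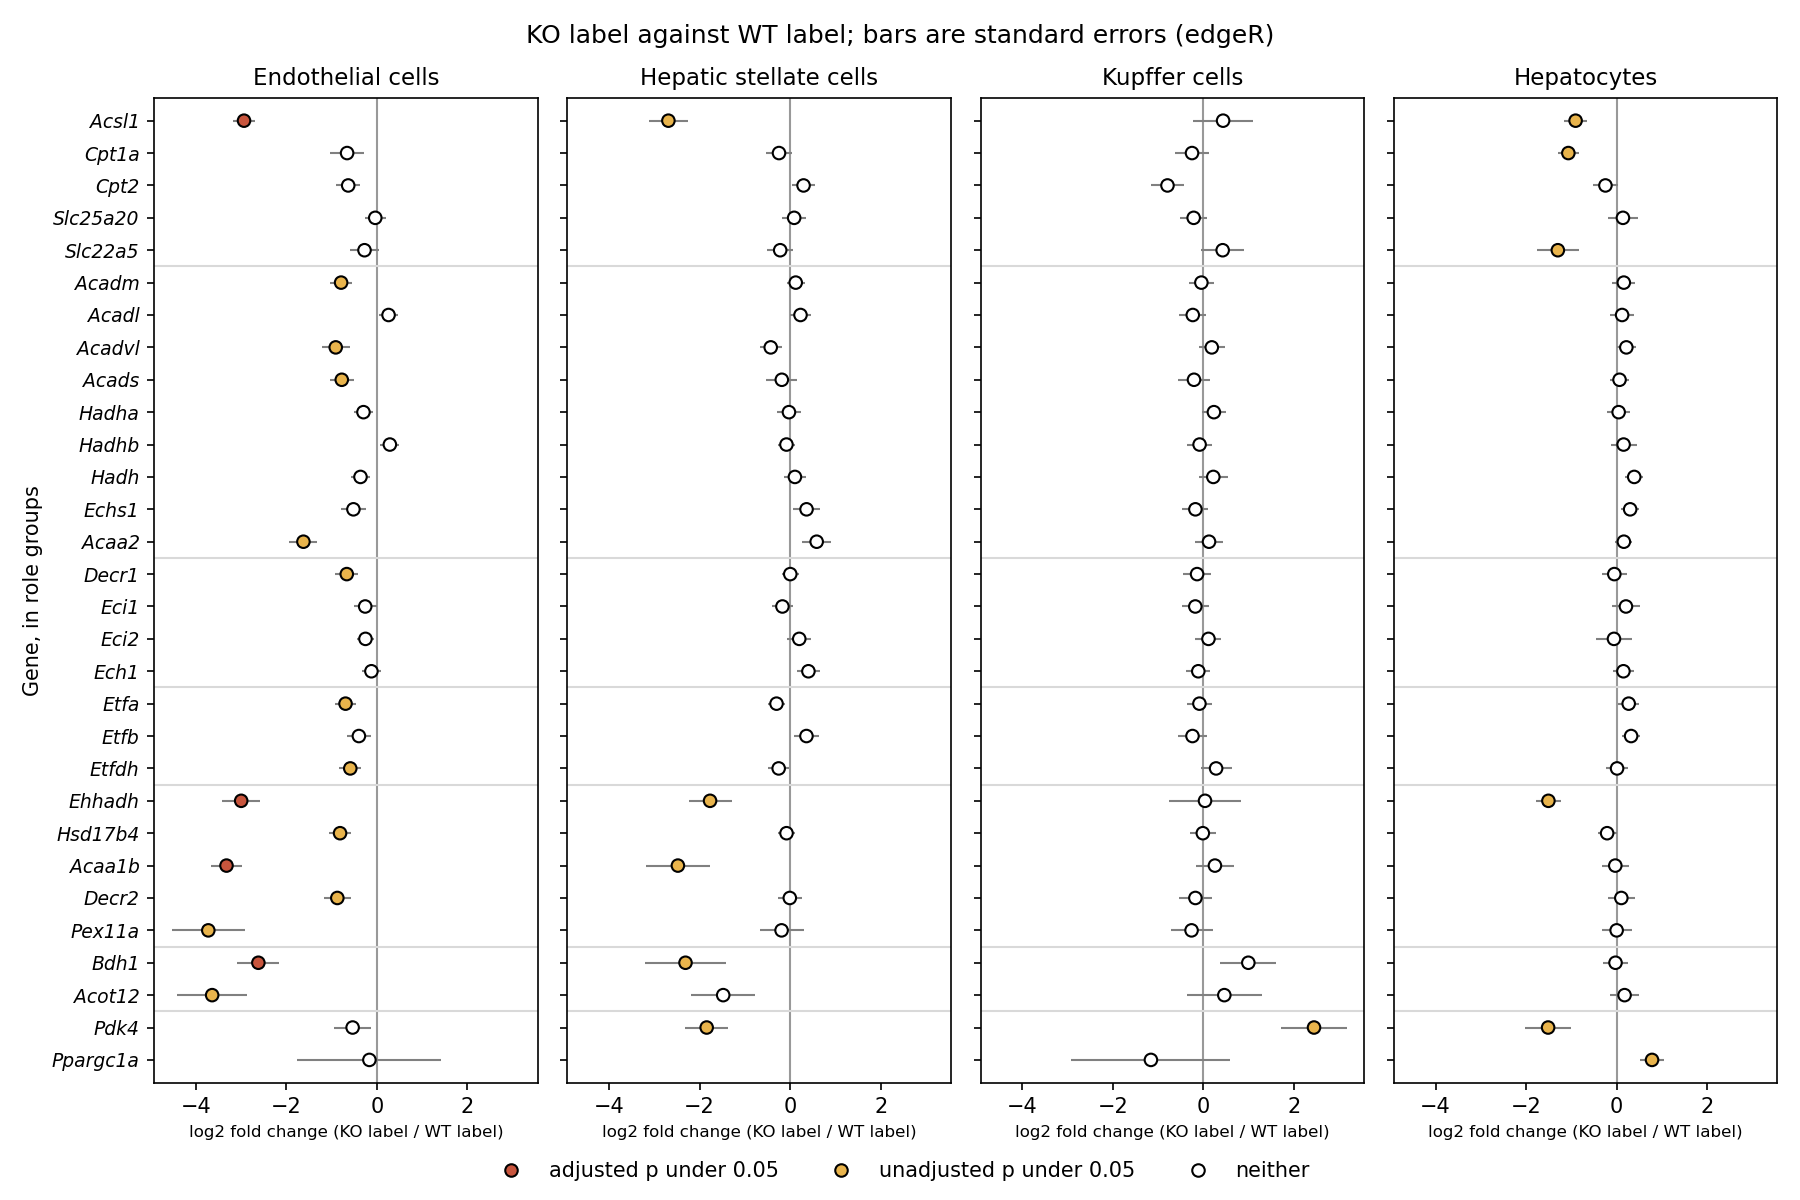
log2 fold change of the KO label over the WT label (horizontal axis) for the 30 members (vertical axis, by role) in the 4 cell types, with bars of 1 SE from edgeR. Red points passed an adjusted p of 0.05 (4 in ECs), yellow points an unadjusted p of 0.05 only, and Ppargc1a was below the count filter in HSCs.

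In HSCs the members with the lowest estimates again included Acsl1, Acaa1b, Bdh1 and Ehhadh. None of 29 members tested passed the adjusted threshold in edgeR (0% of all genes did). At an unadjusted p under 0.05, 5 were lower (7.00% of all genes) and 0 were higher (1.75% of all genes), and DESeq2 called 3, Acsl1, Acaa1b and Pdk4 (2.70% of all genes with an adjusted p in that tool). Both KO-label libraries were below both WT libraries for 8 members (19.3% of all genes) and above them for 3 (20.5% of all genes). The median log2 fold change was -0.08 over the members and 0.02 over all genes.

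Acsl1 measured 62.2 and 144 CPM in WT HSCs and 15.8 and 16.4 CPM in KO-label HSCs (log2 fold change -2.69 ± 0.43, adjusted p = 0.297). Acaa1b measured 20.7 and 61.2 CPM against 4.01 and 10.5 CPM (log2 fold change -2.48 ± 0.71, adjusted p = 0.430). Ehhadh measured 13.5 and 19.4 CPM against 6.64 and 3.25 CPM (log2 fold change -1.77 ± 0.47, adjusted p = 0.411). The labels did not overlap in these genes. Bdh1 and Pdk4, with log2 fold changes of -2.31 and -1.84, were the other members at an unadjusted p under 0.05. Without SC WT replicate 40, an HSC library, the estimates were -0.86 for Bdh1, -1.53 for Acaa1b and -1.99 for Acsl1; without SC KO replicate 20 they were -3.29 for Bdh1 and -3.43 for Acaa1b. All 5 are hepatocyte-enriched, and the 10 hepatocyte markers had HSC log2 fold changes of -5.74 to -1.48 with a median of -2.56. Whether hepatocyte RNA carries these HSC differences was not tested.

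The highest HSC estimates belonged to Acaa2, whose values are given above (log2 fold change 0.59 ± 0.32, adjusted p = 0.706), and to the dienoyl-CoA isomerase Ech1. Ech1 measured 175 and 264 CPM under the WT label and 293 and 294 CPM under the KO label (log2 fold change 0.40 ± 0.26, adjusted p = 0.751). Acaa2 was the exception among the hepatocyte-enriched members, the other 6 of which had negative HSC estimates. The 22 members outside that rule that were tested had HSC log2 fold changes of -0.43 to 0.40, with a median of -0.02.

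The KO-label differences were also set against the KC level of each gene. The Spearman correlation between the WT KC level as a percentage of WT hepatocytes and the log2 fold change was 0.65 in ECs over 30 members and 0.43 in HSCs over 29. In ECs the order was not strict, since Pex11a at 25.3% had a log2 fold change of -3.72, Bdh1 at 5.36% had -2.62 and Pdk4 at 8.63% had -0.53. This is a description across genes of the same few libraries, which are not independent, and KCs entered neither fold change.

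**Figure D4:**
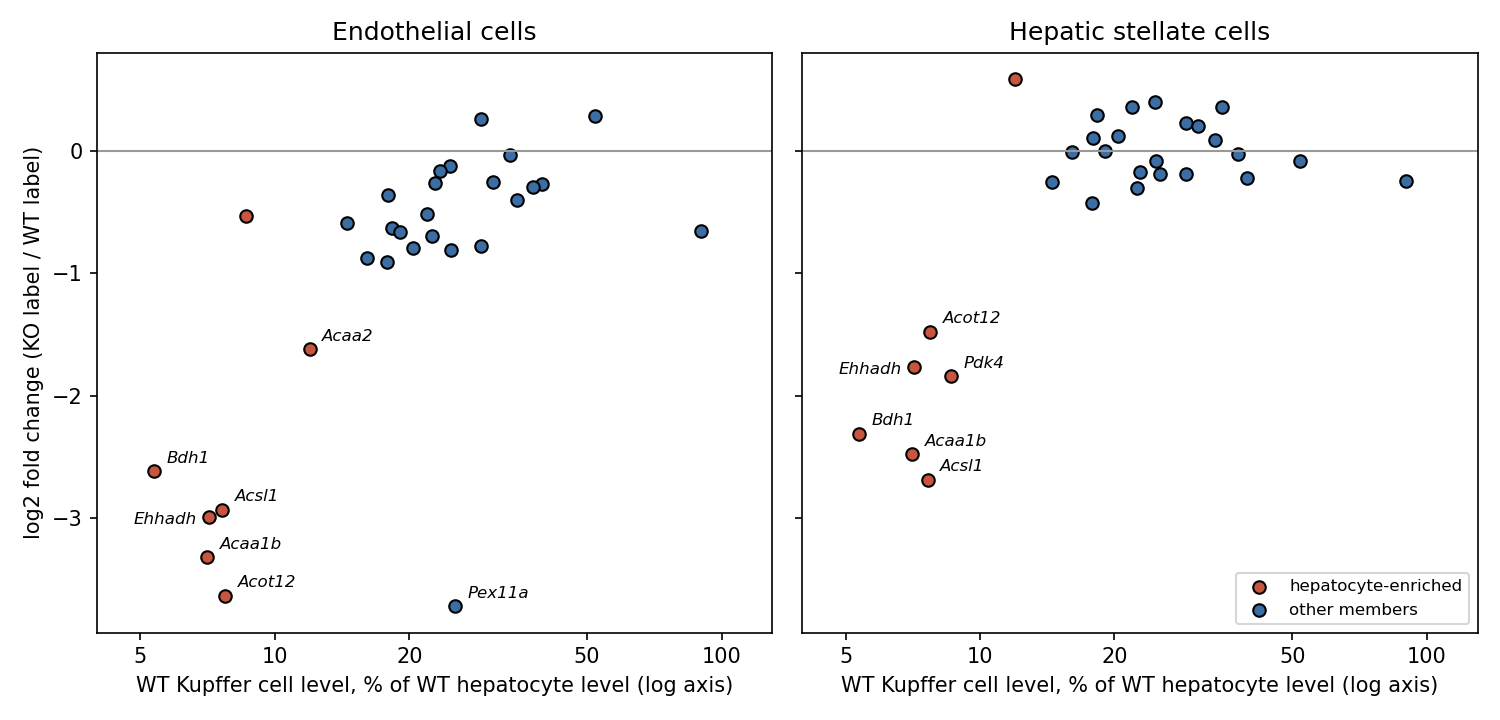
log2 fold change of the KO label over the WT label in ECs (left) and HSCs (right) against the WT KC level as a percentage of the WT hepatocyte level (horizontal log axis), with 1 point per member, red for the 7 hepatocyte-enriched members. In ECs, Pex11a at 25.3% lies apart with a log2 fold change of -3.72; in HSCs, the 6 hepatocyte-enriched members other than Acaa2 lie lowest.

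KCs showed little difference between the labels. None of 30 members passed the adjusted threshold in edgeR (0% of all genes), and DESeq2 called 0 (0.510% of all genes with an adjusted p in that tool). At an unadjusted p under 0.05, 0 were lower (1.74% of all genes) and 1 was higher (3.35% of all genes). Both KO-label libraries were below both WT libraries for 2 members (16.1% of all genes) and above them for 2 (20.5% of all genes). The median log2 fold change was -0.06 over the members and -0.02 over all genes.

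That member was Pdk4, which measured 1.41 and 5.35 CPM in WT KCs and 12.4 and 24.2 CPM in KO-label KCs. Its log2 fold change was 2.44 ± 0.72 (SE, adjusted p = 0.933), and the labels did not overlap. Bdh1 measured 15.0 and 27.1 CPM against 19.6 and 64.4 CPM (log2 fold change 0.99 ± 0.62, adjusted p = 0.933) and overlapped, with an estimate of -0.18 when KC KO replicate 43 was left out. At the low end, Cpt2 measured 50.5 and 61.9 CPM against 43.3 and 24.3 CPM (log2 fold change -0.79 ± 0.36, adjusted p = 0.933). Ppargc1a was barely counted in KCs, at 2.28 and 1.70 CPM against 1.91 and 0 CPM. The hepatocyte-enriched genes, chosen in part on the WT KC libraries, had a KC median log2 fold change of 0.63, and the 10 hepatocyte markers ran from -0.14 to 1.22; their part in the Pdk4 difference was not tested.

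In hepatocytes themselves, the estimates ran in both directions. None of 30 passed the adjusted threshold in edgeR (0% of all genes did), the lowest adjusted p being 0.700. At an unadjusted p under 0.05, 5 members were lower (4.69% of all genes) and 1 was higher (2.42% of all genes). DESeq2 called 2 of them, Ehhadh and Cpt1a (0.246% of all genes with an adjusted p in that tool). Both KO-label libraries were below both WT libraries for 6 members (23.2% of all genes) and above them for 5 (16.4% of all genes). The median log2 fold change was 0.08 over the members and -0.02 over all genes.

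Ehhadh measured 219 and 254 CPM in WT hepatocytes and 99.2 and 61.9 CPM in KO-label hepatocytes. The labels did not overlap, and the KO-label mean was 34.1% of the WT mean. Its log2 fold change was -1.51 ± 0.27 (SE, adjusted p = 0.700), with an unadjusted p of 0.00155, the lowest among the members. Leaving out each hepatocyte library in turn gave log2 fold changes of -1.81 to -1.25, and without HC KO replicate 25 the adjusted p was 0.0460.

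Next were genes of fatty acid activation and carnitine transport. Cpt1a measured 195 and 234 CPM under the WT label and 111 and 86.8 CPM under the KO label (log2 fold change -1.07 ± 0.23, unadjusted p = 0.00383). Acsl1 measured 1405 and 2098 CPM against 988 and 818 CPM (log2 fold change -0.91 ± 0.26, unadjusted p = 0.0132). Slc22a5 measured 16.5 and 40.0 CPM against 10.8 and 11.4 CPM (log2 fold change -1.30 ± 0.46, unadjusted p = 0.0299). In all 3 genes both KO-label libraries were below both WT libraries, and the adjusted p was 0.700 for each.

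The regulators went in opposite directions. Pdk4 measured 20.7 and 57.6 CPM under the WT label and 12.6 and 14.0 CPM under the KO label (log2 fold change -1.51 ± 0.50, unadjusted p = 0.0244). Ppargc1a, the coactivator of PPAR-alpha and of mitochondrial genes, measured 9.62 and 7.36 CPM against 14.7 and 13.2 CPM (log2 fold change 0.78 ± 0.28, unadjusted p = 0.0300). Neither overlapped between the labels, and the adjusted p was 0.700 for both. For Pdk4 and Slc22a5 the WT libraries themselves differed by over 2 times, and without HC WT replicate 33 their log2 fold changes were -0.52 and -0.45. Without the same library that of Acsl1 was -0.52, and without HC WT replicate 29 it was -1.21.

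The mitochondrial spiral showed no such drop in hepatocytes. With TMM scaling its 9 members all had estimates above 0, from 0.04 for Hadha to 0.39 for Hadh, the short-chain 3-hydroxyacyl-CoA dehydrogenase, and none reached an unadjusted p under 0.05. That shared sign was not firm. In CPM the Hadha mean was 324 under the WT label and 321 under the KO label. Estimates of Hadha, Acads, Acadm, Acadl, Hadhb and Acaa2 crossed 0 with a library left out. Those of Acadvl, Hadh and Echs1 stayed above 0. Hadh measured 340 and 354 CPM under the WT label and 416 and 452 CPM under the KO label (log2 fold change 0.39 ± 0.20, adjusted p = 0.713). The enoyl-CoA hydratase Echs1 had 0.30, and Acaa2 had 0.16, with 2154 and 2277 CPM against 2176 and 2547 CPM. The electron transfer proteins had 0.01 to 0.32 and the auxiliary enzymes -0.06 to 0.21. The peroxisomal members other than Ehhadh ran from -0.21 for Hsd17b4 to 0.10 for Decr2, and Bdh1 and Acot12 had -0.03 and 0.17. Beside these, the 10 hepatocyte markers had hepatocyte log2 fold changes of -0.93 to 0.26 and the hepatocyte-enriched genes a median of 0.03. Some marker lists of other cells were lower under the KO label in the hepatocyte libraries, and others were not. The summed CPM of 5 erythroid markers was 165 to 268 under the WT label against 26.6 to 30.4 under the KO label. That of 10 Kupffer markers was 282 to 581 against 182 to 243, and that of 10 endothelial markers 134 to 147 against 86.7 to 108. Stellate markers, 10 in number, summed to 124 to 142 against 75.8 to 120. The sum of 5 cholangiocyte markers was higher under the KO label, at 112 to 116 against 123 to 144. Neutrophil markers were also higher, at no more than 8.96 CPM, and lymphocyte markers overlapped between the labels, at no more than 1.66 CPM. At most 1 erythroid marker and no Kupffer, endothelial or cholangiocyte marker was at 0 in a hepatocyte library. The part of these other cells in the hepatocyte differences was not tested.

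**Figure D5:**
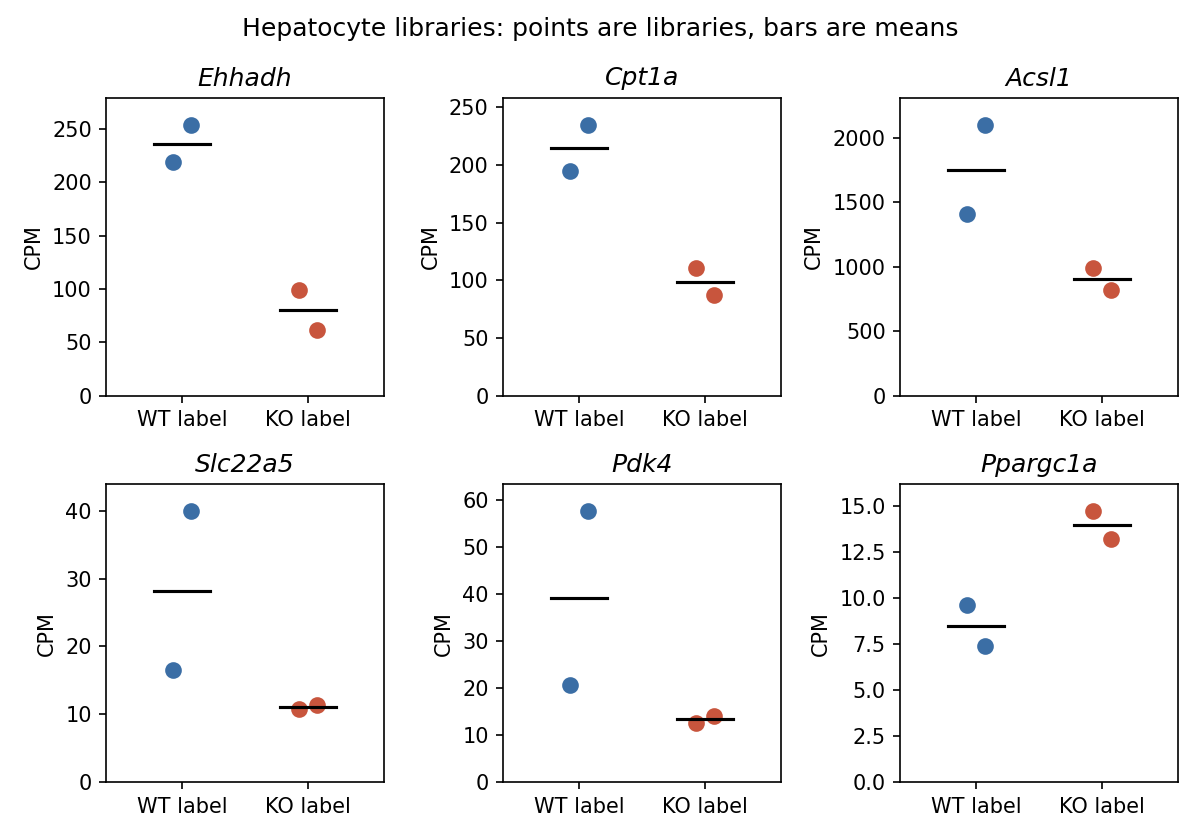
CPM (vertical axes, from 0) of the 6 members with an unadjusted p under 0.05 in hepatocytes, with 1 point per library and a bar at the mean of each label. In Ehhadh, Cpt1a, Acsl1, Slc22a5 and Pdk4 both KO-label points lie below both WT points; in Ppargc1a both lie above.

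Tests of the difference between the label contrasts of 2 cell types called few members. Between ECs and KCs 2 members were called, Acaa1b and Pex11a, against 2.07% of all genes; 10 reached an unadjusted p under 0.05 (14.0% of all genes) and DESeq2 called 8 (7.35%). The other 5 pairs called 0 members in edgeR, against 0.0349% of all genes for ECs and HSCs, 0.0697% for ECs and hepatocytes, 0.593% for HSCs and KCs, 0.0755% for HSCs and hepatocytes and 0.0116% for KCs and hepatocytes. In those 5 pairs, in that order, 3, 9, 5, 3 and 2 members reached an unadjusted p under 0.05, against 4.85%, 9.12%, 11.7%, 7.16% and 8.18% of all genes. DESeq2 called 2, 4, 4, 0 and 1, against 0.662%, 4.44%, 5.27%, 2.69% and 0.908% of all genes with an adjusted p in that tool. The Ehhadh contrasts of ECs and hepatocytes were thus not shown to differ in size.

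Genes of the same pathways outside the 30 were read from lists. In ECs the calls of 4 lists were all lower: 3 of 19 activation, carnitine and mitochondrial genes, 1 of 13 regulators, 2 of 12 further known PPAR-alpha targets, and 0 of 20 tricarboxylic acid cycle and respiratory chain genes. Their median log2 fold changes in ECs were, in that order, -0.22, -0.24, -2.84 and -0.07. Over all genes tested in ECs, 2.08% were called and the median was -0.01. At an unadjusted p under 0.05, 5, 4, 9 and 0 genes of these lists were lower (10.1% of all genes). In the same order, 0, 1, 1 and 0 were higher (4.86% of all genes). The fatty acyl-CoA transporters and synthetases Slc27a2 and Slc27a5 and the fatty acid binding protein Fabp1 had -3.40, -2.82 and -3.25. Among peroxisomal genes, the calls included Phyh, Scp2, Pecr and Amacr, with log2 fold changes of -1.88, -1.80, -2.79 and -1.51. The regulator was the liver transcription factor Creb3l3 (-3.08). The PPAR-alpha targets were Angptl4, an inhibitor of lipoprotein lipase, with 53.9 and 65.1 CPM against 6.06 and 1.74 CPM (log2 fold change -3.95 ± 0.55, adjusted p = 0.0300), and Cyp4a14, with 6.00 and 9.63 CPM against 0 CPM in both KO-label libraries. The hepatocyte marker values given for ECs stand beside these genes too.

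In HSCs, KCs and hepatocytes 0 of these genes passed the adjusted threshold in edgeR. At an unadjusted p under 0.05 the lists held 16 of 85 genes tested in HSCs, all lower. They held 2 of 87 in KCs, all higher, and 7 of 88 in hepatocytes, of which 1 was higher. Shares of all genes (lower and higher) were 7.00% and 1.75% in HSCs, 1.74% and 3.35% in KCs, and 4.69% and 2.42% in hepatocytes. In hepatocytes Acox3, a branched-chain acyl-CoA oxidase, measured 32.5 and 32.7 CPM under the WT label and 17.8 and 16.4 CPM under the KO label (log2 fold change -0.87 ± 0.19, adjusted p = 0.700). Malonyl-CoA decarboxylase Mlycd, which removes the inhibitor of Cpt1a, measured 63.7 and 66.9 CPM against 38.7 and 39.6 CPM (log2 fold change -0.67 ± 0.19, adjusted p = 0.700). Ppara itself read 139 and 215 CPM against 132 and 134 CPM (log2 fold change -0.36 ± 0.29, adjusted p = 0.787). In HSCs Slc27a5 measured 49.8 and 107 CPM against 5.81 and 15.7 CPM (log2 fold change -2.85 ± 0.62, adjusted p = 0.343). In KCs the branched-chain oxidase Acox2 measured 14.2 and 21.3 CPM against 42.3 and 33.8 CPM (log2 fold change 1.06 ± 0.34, adjusted p = 0.933). The fatty acid translocase Cd36 measured 179 and 160.2 CPM against 221 and 728 CPM (log2 fold change 1.44 ± 0.58, adjusted p = 0.933), with 1 KO-label library far above the rest.

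As many of the members are known PPAR-alpha targets, their promoters were read for the motif of that receptor, a direct repeat of AGGTCA sites with any single base between them, on both strands. Promoters run from 250 bases before to 50 bases after each start in RefSeq (GRCm38.p6), and 27 of the 30 genes were in the table, with 29 promoters. An exact match stood in 0 of the 29 and in 0.0396% of all 32851 promoters. With at most 1 mismatch in the 12 fixed letters 1 promoter of the members matched (3.45%), against 0.554% of all, and with at most 2 mismatches 4 matched (13.8%), against 3.86% of all. Ehhadh and the other genes called in ECs had no match at these limits, which says only that these letters are not in this window. The Ehhadh promoter is shown because its gene had the lowest unadjusted p in hepatocytes. It lies at chr16:21787785-21788084 on the minus strand, and capitals mark its nearest window, with 4 mismatches.
Ehhadh: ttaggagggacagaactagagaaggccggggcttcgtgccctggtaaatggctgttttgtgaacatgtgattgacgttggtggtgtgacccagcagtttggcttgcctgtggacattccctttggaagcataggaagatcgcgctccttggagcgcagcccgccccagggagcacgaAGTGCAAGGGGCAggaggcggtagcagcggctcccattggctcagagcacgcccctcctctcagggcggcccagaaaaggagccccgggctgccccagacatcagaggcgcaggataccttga
The promoter of Acot12, chosen after its match was seen, holds the closest match among the members, with 1 mismatch on the minus strand of the window in capitals, and lies at chr13:91741271-91741570 on the plus strand.
Acot12: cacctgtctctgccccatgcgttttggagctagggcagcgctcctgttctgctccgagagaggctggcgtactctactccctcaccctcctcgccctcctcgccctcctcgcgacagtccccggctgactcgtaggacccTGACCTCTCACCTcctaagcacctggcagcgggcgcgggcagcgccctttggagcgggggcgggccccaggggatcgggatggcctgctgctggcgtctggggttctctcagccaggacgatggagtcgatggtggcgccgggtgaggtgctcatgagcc
The windows with 2 mismatches, in Slc25a20, Echs1 and Etfa, are given here as 13 bases each on the strand of the gene.
Slc25a20: AGGTGAAAGGTCG
Echs1: AGGTCACGGGTCC
Etfa: TTACCTTTGCCCT
None of these 3 genes, nor Acot12, passed the adjusted threshold in any cell type in edgeR, and in hepatocytes their log2 fold changes were 0.14 for Slc25a20, 0.30 for Echs1, 0.27 for Etfa and 0.17 for Acot12.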

How the data were processed

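RNA was sequenced from 16 libraries (4 cell types, WT and KO labels, 2 each). The deposited counts are reads per gene that the authors made from their alignments, not normalized; the submitters' processing notes name Trimmomatic 0.32, HISAT2 2.1.0, HTSeq 0.9.1, edgeR and GRCm38. The annotation release and strand setting are not given in the sources used here, and the library kit is given in 2 ways, so overlapping antisense genes are uncertain. The 5 summary lines of each table were left out. CPM are counts over gene totals (12872706 to 15690506 reads), and 3 counts equal 0.191 to 0.233 CPM, counting error only. Label contrasts were fitted within each cell type (4 libraries) with edgeR 4.0.16 in R 4.3.3 (filterByExpr, TMM, quasi-likelihood test, Benjamini-Hochberg over all genes, threshold 0.05), and cell type contrasts and differences of label contrasts in 1 fit of all 16 libraries. A standard error is the log2 fold change over the square root of F. Alternatives were DESeq2 1.42.0, other size factors and count filters, thresholds and leaving out each library. Scripts were tested on simulated data. Lengths, positions and shared 50-base words come from GENCODE M21, promoters from RefSeq (GRCm38.p6). All 30 members are described by role, with values per library for Ehhadh, members past a threshold, the 2 highest and 2 lowest fold changes per cell type and the extremes of level; list genes are named where called, or by lowest unadjusted p. The members and lists were chosen with earlier results of these data known. Replicates of each group differed by more than counting noise. Some list genes, and the totals of lists that hold them, are not reported here.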

Additional observations from a re-analysis of the deposited data

Results flagged for a closer look

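The KO-label difference of 2 members differed between ECs and KCs by the test of the difference itself in edgeR. For Acaa1b the EC contrast minus the KC contrast was -3.58 ± 0.83 (log2, SE, adjusted p = 0.0489), from -3.32 in ECs and 0.26 in KCs. In CPM, Acaa1b read 115 and 209 under the WT label and 16.2 and 16.1 under the KO label in ECs, and 50.03 and 83.7 against 56.2 and 106 in KCs. For Pex11a the difference was -3.49 ± 0.73 (adjusted p = 0.0355), from -3.72 in ECs and -0.24 in KCs, with 8.45 and 16.1 CPM against 11.6 and 9.27 CPM in KCs. The EC contrast thus lay below the KC contrast in both genes, and the KC labels overlapped in both. Beside these, the 10 hepatocyte markers had a median log2 fold change of -2.94 in ECs and 0.55 in KCs, and their part in the 2 differences was not tested.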

How the results depend on the processing

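Cell type counts of members changed by less than 1.5 times under every alternative run. Label contrasts were less stable. Shares of all genes stand above for the main edgeR, DESeq2 and unadjusted counts. For every other setting in this section no such share is given, so those counts describe the members only. In ECs 4 members were called, 7 with DESeq2, 8 without a filter on low counts, 7 at an adjusted p under 0.1, 15 at an unadjusted p under 0.05, and 0 to 7 with each library left out. In HSCs the 0 calls became 3 with DESeq2, 5 without the filter and 5 unadjusted. In KCs they became 1 without the filter and 1 unadjusted. In hepatocytes they became 2 with DESeq2, 5 without the filter, 6 unadjusted and 0 to 1 with a library left out. Ehhadh in hepatocytes was -1.499 with DESeq2 (adjusted p = 0.000157), -1.504 without the filter (adjusted p = 3.38e-05) and -1.81 to -1.25 with a library left out; the cause of the change in p was not tested. Bdh1 in KCs ran from -0.18 to 1.62 with a library left out, and turned sign without KC KO replicate 43.

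For the tests of a difference between ECs and KCs, 2 members were called, 1 with RLE size factors, 8 with DESeq2 and 0 to 2 with a library left out; the count was 0 without either EC KO library, without EC WT replicate 38, without KC WT replicate 31 or KC KO replicate 43, and without any one of the 4 hepatocyte libraries. DESeq2 called 2 between ECs and HSCs, 4 between ECs and hepatocytes, 4 between HSCs and KCs and 1 between KCs and hepatocytes, where edgeR called 0, and leaving out a library gave 0 to 2 between HSCs and KCs. No paired analysis was possible because the replicate numbers in the labels differ between all groups. Where a library was left out, the lone library was assumed to vary like the other group. Ppargc1a had 76 and 0 counts in the KO-label EC libraries and 29 and 0 in the KO-label KC libraries, so replicates differed at like depth.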
